A study of Mus musculus with 4 samples.

Results

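Chromatin accessibility at 10 genes of the blood lineages was examined in mesenchymal stem cells (MSCs) of mouse bone, to ask whether loci that belong to another lineage were open in stromal cells and whether they differed with the oxygen level. The genes were Ptprc, Spi1, Gata1, Csf1r, Cd14, Itgam, Cx3cr1, Tyrobp, Laptm5 and Cd68. Their loci were taken as all peaks that overlapped the gene or the 5000 bp on either side of it in GENCODE M21, which gave 56 of the 128055 peaks of the data set. Of the 10 genes, 9 had at least 1 such peak, against 17712 of 21951 protein-coding genes. Peaks had been measured by ATAC-seq, in which the transposase Tn5 inserts sequencing adapters into open DNA.

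The cells came from the hind limb bones of C57BL6/N mice aged 3 to 5 months. They were grown at 2% O2 and sorted as CD45-, Ter-119-, Sca-1+ and CD140a+ cells. They were then either returned to hypoxia (2% O2, 2 libraries) or moved to normoxia (21% O2, 2 libraries), with both groups in the same medium. Replicates carry the numbers 1 and 2 in the labels, which do not say whether they came from separate animals. The paper describes them as 2 biologically independent experiments. The p-values measure only the spread between these libraries, which the test partly pools over all peaks or gene spans.

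CD45 is the tyrosine phosphatase carried by nearly all nucleated blood cells and is encoded by Ptprc, so Ptprc is the gene of a marker against which the cells were selected. Bone marrow holds stromal cells and blood cells side by side, and MSC cultures are depleted of macrophages and other leukocytes by such sorts. In blood cells the 10 genes are governed by lineage factors, of which PU.1 (encoded by Spi1) directs myeloid and B cell development and GATA-1 directs red cell and megakaryocyte development. Csf1r, Cd14, Itgam and Cx3cr1 encode surface receptors of monocytes and macrophages, Tyrobp a signalling adaptor, and Laptm5 and Cd68 proteins of the lysosome and endosome. In bulk libraries, fewer cells in which a site is open and less opening per cell cannot be told apart.

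Library totals ran from 26680936 to 29965523 reads. Nuclear peaks held 49.2% and 53.2% of the library total in hypoxia and 31.0% and 35.2% in normoxia. Values are given as deposited, as the reads of a peak per 10000000 reads of the library, not divided by peak width. Fold changes are normoxia over hypoxia after a scaling by relative log expression (RLE) size factors, which sets the typical peak to no change (the median log2 fold change of all peaks was -0.44 as deposited and -0.0040 after scaling). They are on the scale of log2(value + 1), which understates the change of weak peaks. A peak or gene was called when limma gave a false discovery rate (FDR) under 0.01 over all 128055 peaks or all 17712 gene spans. How far the share of reads in peaks enters the fold changes was not tested.

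Start sites of stromal genes were examined first. This does not test cell identity, since 69.4% of all protein-coding genes had a peak within 1000 bp of an own start site. All 8 blood stem cell genes listed below had one too. Among 12 genes of the sorted MSC and of connective tissue, 11 had a peak within 1000 bp of an own start site, including Pdgfra (which encodes CD140a) and Ly6a (Sca-1). The strongest Pdgfra start peak held 334 and 299.2 in hypoxia and 166 and 196 in normoxia (log2 fold change -0.33, SE 0.11, FDR = 0.0359). The strongest Ly6a start peak per kb held 25.8 and 18.02 in hypoxia and 5.62 and 11.3 in normoxia (log2 fold change -0.88, SE 0.28, FDR = 0.0313). Both peaks were lower in both normoxia libraries and neither was called. Next to the latter, the Ly6a start peak chr15:74997701-74998800 was called lower, with 13.1 and 12.2 in hypoxia and 3.37 and 1.67 in normoxia (log2 fold change -1.60, SE 0.36, FDR = 0.00291), and the sum over the Ly6a span was called lower too.

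Most blood-lineage genes of the set had a peak in the span, and 6 of them had one at or near an annotated own start. A peak within 1000 bp of an own start was present for 6 of the 10 genes (60%), beside 69.4% of all protein-coding genes, and the difference was not tested. Csf1r, Cd14 and Cd68 had a peak that covered a start (3 of the 10 genes), beside 66.2% of all protein-coding genes. This difference was not tested either. Spi1, Cx3cr1 and Laptm5 had a peak beside one. For Cx3cr1 this was the start of a long transcript and for Laptm5 an alternative start, as described below. The Cd68 peak also covers starts of Eif4a1 and Mpdu1. Ptprc, Itgam, Tyrobp and Gata1 had none, with the nearest peak 15195, 26318, 6213 and 15366 bp from a start. Per kb, the start peaks of Cd68 (32.6) and Cd14 (31.4) exceeded the median of all genes that have a start peak (30.0). Csf1r (19.0), Spi1 (16.4), Laptm5 (14.6) and Cx3cr1 (10.1) lay below it.

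The wider blood-lineage lists gave a similar picture. A start peak was found for 5 of 10 pan-leukocyte genes, 11 of 21 macrophage and monocyte genes, 5 of 10 neutrophil genes, 5 of 10 T and NK cell genes, 2 of 10 B cell genes and 7 of 13 erythroid and megakaryocyte genes. All 8 blood stem cell genes had one, among them Runx1 and Mecom, which are also used outside blood. Over all lists together the count was 43 of 82 genes (52.4%). Genes of liver and nerve had a start peak in 6 of 10 cases and endothelial genes in 4 of 8. The 10 genes and several of the lists share members.

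**Figure D1:**
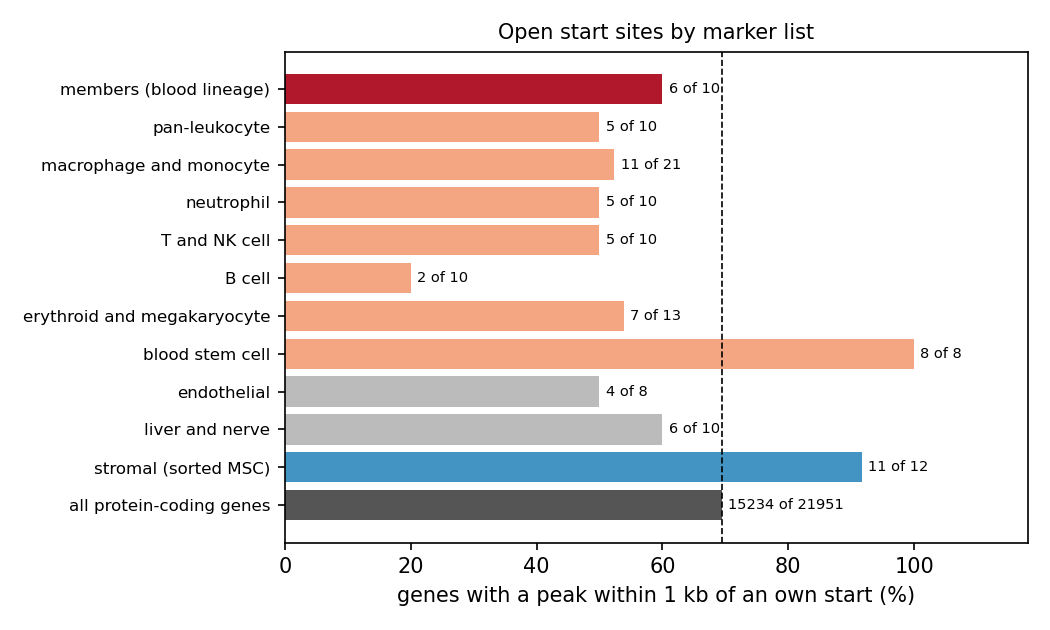
Share of genes with a peak within 1000 bp of an own start site (x axis, percent) for each marker list, with the number of genes beside each bar and the share of all protein-coding genes as the dashed line. Every blood list apart from that of blood stem cells lies below the 69.4% of all genes, and the stromal list lies above it with 11 of 12.

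Sequence around the starts was available as a RefSeq window (250 bp before to 50 bp after a start, build GRCm38.p6) for 6 of the genes. These genes had 7 windows, 2 of them for Ptprc. When 20128 windows were ordered by the observed over expected ratio of CpG and cut into 3 equal groups, 6 of the 7 fell in the lowest. The exception was the Ptprc window shown here, at a ratio of 0.481 (percentile 42.9), while the other Ptprc window had 0.173. In the lowest group 23.6% of windows overlapped a peak, against 97.2% in the highest group. Of the 6 genes, Cd68 was the one whose window overlapped a peak. The windows were searched on both strands for short strings known from blood-cell promoters and from promoters in general. AGGAAGT is the ETS string. GAGGAA is the PU.1-type string, which can overlap it. AGATAA is the first GATA-type string. TGATAA is the other one. TGTGGT is the RUNX string. TGACTCA is the AP-1 string. GGGCGG is the GC box. TATAAA is the TATA-type string. Capitals below mark every match. A match is a string of letters and says nothing of binding. The 4 windows shown are those of the sort marker, a myeloid receptor, the erythroid regulator and the macrophage gene whose window lay in a peak.
Ptprc, chr1:138175256-138175555, minus strand: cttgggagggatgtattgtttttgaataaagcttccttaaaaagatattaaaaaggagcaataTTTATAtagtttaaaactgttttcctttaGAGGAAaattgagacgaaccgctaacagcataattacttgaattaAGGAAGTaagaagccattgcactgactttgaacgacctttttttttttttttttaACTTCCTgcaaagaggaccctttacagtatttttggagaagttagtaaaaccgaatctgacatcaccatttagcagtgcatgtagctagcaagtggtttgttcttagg
Itgam, chr7:128062390-128062689, plus strand: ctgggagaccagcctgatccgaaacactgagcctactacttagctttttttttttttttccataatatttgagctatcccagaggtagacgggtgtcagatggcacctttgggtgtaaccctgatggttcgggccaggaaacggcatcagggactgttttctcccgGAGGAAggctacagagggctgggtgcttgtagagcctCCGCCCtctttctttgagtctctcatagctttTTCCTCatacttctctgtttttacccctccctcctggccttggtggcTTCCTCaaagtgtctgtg
Gata1, chrX:7967861-7968160, minus strand: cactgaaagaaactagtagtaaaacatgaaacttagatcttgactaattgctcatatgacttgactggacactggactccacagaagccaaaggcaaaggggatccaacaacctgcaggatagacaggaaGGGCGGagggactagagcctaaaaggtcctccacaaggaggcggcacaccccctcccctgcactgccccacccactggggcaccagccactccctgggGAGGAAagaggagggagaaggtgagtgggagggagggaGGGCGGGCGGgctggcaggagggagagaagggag
Cd68, chr11:69666121-69666420, minus strand: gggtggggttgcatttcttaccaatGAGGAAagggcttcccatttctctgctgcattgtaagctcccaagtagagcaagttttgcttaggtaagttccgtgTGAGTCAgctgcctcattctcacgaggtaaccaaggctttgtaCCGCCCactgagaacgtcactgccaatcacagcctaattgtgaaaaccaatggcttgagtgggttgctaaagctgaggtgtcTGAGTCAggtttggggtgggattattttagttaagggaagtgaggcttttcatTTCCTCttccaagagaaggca

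The Ptprc window held 2 matches to the ETS string, which 9.17% of all windows hold, together with 1 PU.1-type string (27.2% of windows) and 1 TATA-type string (12.2%). In the Itgam window there were 3 PU.1-type strings and 1 GC box. The Gata1 window held 3 GC boxes (47.7% of windows hold at least 1) and 1 PU.1-type string, but neither GATA-type string, which are found in 9.45% and 7.21% of windows. The Cd68 window held 2 AP-1 strings, present in 4.64% of windows, beside 2 PU.1-type strings and 1 GC box. It lies in a peak of 11900 bp that also covers starts of Eif4a1 and Mpdu1. Whether any string goes with an open window was not tested. A further Ptprc window, chr1:138175077-138175376, overlaps the one shown and lay in no peak either. It held 1 ETS string and 1 of each GATA-type string. For Cx3cr1 the window held 1 RUNX string (14.7% of windows), and for Laptm5 it held 1 PU.1-type and 1 TATA-type string. Windows for Spi1, Csf1r, Cd14 and Tyrobp were not used here.

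Ptprc was the gene whose locus rose in normoxia. Its span of 112848 bp on chromosome 1 (138062861 to 138175708) held 4 peaks, all in introns and none at a start. Their values per kb were 13.2, 14.3, 14.4 and 32.4, against a median of 13.4 over all peaks. The summed signal was 51.0 and 47.3 in the hypoxia libraries, from 144 and 139 reads. In normoxia it was 61.1 and 64.4, from 163 and 193 reads. Both normoxia libraries thus lay above both hypoxia libraries before any scaling. The log2 fold change of the sum was 0.82 (SE 0.16, FDR = 2.77e-06), while 2.5% of all gene spans were called higher, 25.6% lower and 28.1% in either direction. As deposited, the log2 fold change was 0.35 (FDR = 0.0538), which is not a call. The sum stayed called when any single library was left out (log2 fold change 0.70 to 0.92).

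After scaling, all 4 Ptprc peaks had a positive log2 fold change. As deposited, 2 of the 4 had both normoxia libraries above both hypoxia libraries. The intronic peak at chr1:138126701-138127600, 47634 bp from the nearest start, held 10.6 and 6.46 in hypoxia and 14.6 and 19.7 in normoxia. Its log2 fold change of 1.39 (SE 0.28, FDR = 0.00111) was a call, and it remained one as deposited (0.95, FDR = 0.00623). Without hypoxia library 1 it was 1.73 (FDR = 0.175) and without hypoxia library 2 it was 1.01 (FDR = 0.173), settings in which limma calls 0 of all peaks. The peak at chr1:138148701-138149300 showed the same order of libraries, with 5.31 and 7.82 in hypoxia and 10.9 and 10.7 in normoxia, but was not called (log2 fold change 1.09, SE 0.31, FDR = 0.0150). The strongest Ptprc peak, chr1:138136101-138137000, stood at the percentile 89.0 of all peaks per kb. It was level as deposited, with 27.6 and 30.3 in hypoxia and 30.4 and 28.4 in normoxia (log2 fold change after scaling 0.48, SE 0.19, FDR = 0.0799). The last, chr1:138085801-138086200, held 7.43, 2.72, 5.25 and 5.67 in hypoxia 1 and 2 and normoxia 1 and 2, and its groups overlapped (log2 fold change 0.60, SE 0.39, FDR = 0.325). The central 300 bases of the called peak are shown, since this is the site of the blood-cell marker gene that was called. They hold 1 PU.1-type string, which 27.6% of peak centres hold, and none of the other strings.
Ptprc intron, chr1:138127001-138127300, plus strand: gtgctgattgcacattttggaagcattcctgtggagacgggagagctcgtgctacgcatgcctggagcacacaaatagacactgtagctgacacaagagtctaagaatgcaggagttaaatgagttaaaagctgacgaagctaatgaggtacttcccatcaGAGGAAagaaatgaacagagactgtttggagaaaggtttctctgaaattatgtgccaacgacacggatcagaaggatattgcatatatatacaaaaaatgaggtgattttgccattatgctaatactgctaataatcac

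No other span of the pan-leukocyte list, and no span of the macrophage list, was called higher in normoxia. Of the 9 pan-leukocyte genes with a span, limma called Ptprc higher and Vav1, a signalling factor of blood cells, lower. The median log2 fold change of these spans was -0.12, against -0.17 over all gene spans. The summed start signal of that list came to 487 and 505 in hypoxia and 280 and 326 in normoxia. Most of it lay in 1 peak at the starts of Ptpn6 and Grcc10, with 308 and 296 in hypoxia and 167 and 197 in normoxia. As deposited, the median log2 fold change of the start peaks was -0.61 for this list and -0.73 over all start peaks. Of 19 macrophage and monocyte spans, limma called 2 lower (Cx3cr1 and Trem2) and 0 higher, with 3 lower and 7 higher at an unadjusted p under 0.05, and edgeR likewise called 2 lower and 0 higher. Over all gene spans limma called 25.6% lower and 2.5% higher, and 41.5% were lower and 6.83% higher at an unadjusted p under 0.05. The summed start signal of the macrophage list ran from 808 to 821 in hypoxia and from 522 to 558 in normoxia. Most of it lay in the wide Cd68 peak described below, which also covers starts of Eif4a1 and Mpdu1. That peak held 489 and 457 in hypoxia and 287 and 319 in normoxia. As deposited, the start peaks of the macrophage list had a median log2 fold change of -0.48, against -0.73 over all start peaks. Of the 11 start peaks of the macrophage list, 7 had both normoxia libraries below both hypoxia libraries, 2 had them above, and the others overlapped. Over all start peaks the shares were 86.1% below and 1.74% above. The 2 above, neither of them called, belong to Lyz2, which encodes the lysozyme of myeloid cells, and C1qc, which encodes a complement subunit made by macrophages. Lyz2 held 16.3 and 15.3 in hypoxia and 18.4 and 16.7 in normoxia (FDR = 0.0842), and C1qc held 6.37 and 5.10 in hypoxia and 6.75 and 9.01 in normoxia (FDR = 0.0956). The part of any remaining blood cells in the Ptprc difference was not tested.

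**Figure D2:**
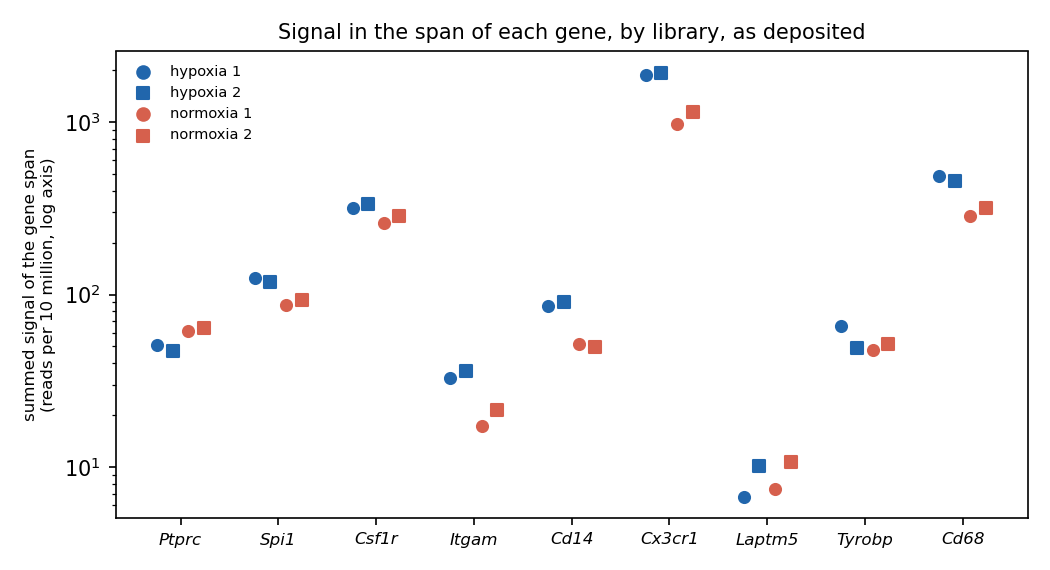
Summed signal of all peaks in the span of each gene (y axis, reads per 10000000, log axis) by library, with hypoxia in blue, normoxia in red, library 1 as circles and library 2 as squares. Ptprc is the gene at which both normoxia libraries, at 61.1 and 64.4, lie above both hypoxia libraries. Gata1 had no peak and is not drawn.

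The 2 lineage regulators differed in how far they were open. Gata1, on the X chromosome (7959260 to 7978071), had no peak in its span, and its nearest peak lay 10460 bp from the gene. A total of 4239 protein-coding genes (19.3%) likewise had no peak. Spi1, on chromosome 2 (91082390 to 91115756), had 7 peaks, a number that 83.2% of genes do not reach. Its summed signal came to 125 and 119 in hypoxia and 87.0 and 92.8 in normoxia. After scaling, this was a log2 fold change of 0.04 (SE 0.12, FDR = 0.818). As deposited it was -0.43 (FDR = 0.00482).

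The Spi1 start peak, chr2:91082701-91083400, began 311 bp past a start and was weak. It held 14.9 and 10.2 in hypoxia and 7.87 and 13.0 in normoxia, and the groups overlapped (log2 fold change 0.18, SE 0.29, FDR = 0.727). Of the 7 peaks, limma called 1 higher in normoxia. This was chr2:91112401-91113300, 15621 bp from the nearest start and overlapping a Spi1 exon, with 3.18 and 7.14 in hypoxia and 10.9 and 10.3 in normoxia. Its log2 fold change was 1.41 (SE 0.33, FDR = 0.00442), from 9 and 21 reads in hypoxia and 29 and 31 in normoxia. As deposited it was 0.99 (FDR = 0.0170), and after cyclic loess scaling its FDR was 0.0237, so neither was a call. The call was also lost without hypoxia library 1 (0.98, FDR = 0.198), hypoxia library 2 (1.80, FDR = 0.168) or normoxia library 1 (1.33, FDR = 0.0287). The other Spi1 peaks had log2 fold changes from -0.37 to 0.80. The centre of this peak is printed as the site of a lineage regulator that was called with all 4 libraries after RLE scaling. It holds none of the strings searched.
Spi1 gene body, chr2:91112701-91113000, plus strand: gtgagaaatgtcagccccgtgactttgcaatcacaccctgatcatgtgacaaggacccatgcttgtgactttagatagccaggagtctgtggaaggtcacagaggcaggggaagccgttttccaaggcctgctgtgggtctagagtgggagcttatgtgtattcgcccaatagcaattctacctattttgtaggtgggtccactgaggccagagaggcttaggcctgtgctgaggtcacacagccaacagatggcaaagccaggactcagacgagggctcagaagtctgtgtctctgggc

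**Figure D3:**
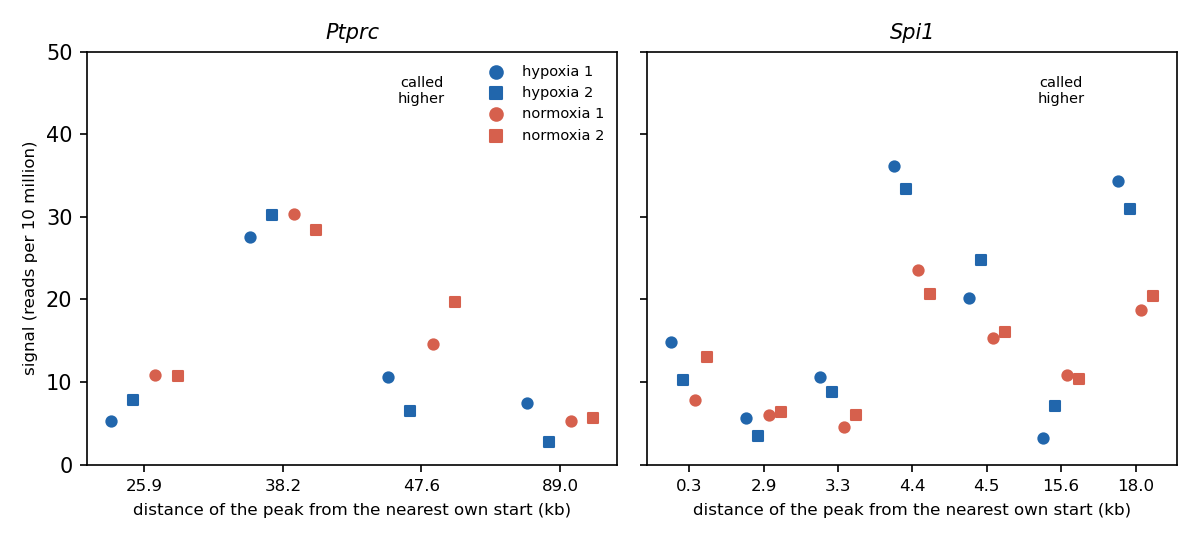
Signal of each Ptprc and Spi1 peak (y axis, reads per 10000000) in the 4 libraries, ordered by distance from the nearest own start (x axis, kb). The called peaks, 47634 bp from a Ptprc start and 15621 bp from a Spi1 start, are those with both normoxia libraries above both hypoxia libraries and an FDR under 0.01.

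Among the receptors, Csf1r and Cd14 were open at the start and were not called after RLE scaling. Csf1r, which encodes the receptor of macrophage colony-stimulating factor, lies on chromosome 18 (61100598 to 61132149) next to Pdgfrb, a receptor gene of stromal cells. Its start peak, chr18:61105001-61109500, held 94.5 and 103 in hypoxia and 73.1 and 71.4 in normoxia. This gave a log2 fold change of 0.03 (SE 0.13, FDR = 0.922) after scaling and -0.45 (FDR = 0.0410) as deposited. More signal lay in a broad peak of 11500 bp between Pdgfrb and Csf1r, chr18:61085401-61096900, with 154 and 174 in hypoxia and 137 and 146 in normoxia (log2 fold change 0.26, SE 0.11, FDR = 0.117). The remaining Csf1r peaks, both in the gene body, had log2 fold changes of 0.47 and 0.32. The sum over the span came to 320 and 333 in hypoxia and 261 and 284 in normoxia (log2 fold change 0.22, SE 0.10, FDR = 0.0566). The Csf1r span was called higher under other scalings, with 0.51 for equal totals over peaks (FDR = 6.24e-07), 0.45 for quantile normalization (FDR = 3.79e-05) and 0.46 for cyclic loess (FDR = 5.83e-06), while as deposited it was -0.26 (FDR = 0.0871).

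Cd14, a co-receptor for bacterial lipopolysaccharide, is a gene of 1732 bp on chromosome 18 (36725067 to 36726798). Its start lay in the peak chr18:36725301-36727100, which held 70.4 and 75.8 in hypoxia and 38.6 and 41.0 in normoxia. Both normoxia libraries were below both hypoxia libraries, as was so for 86.1% of all start peaks and 59.5% of all peaks. The opposite order was found in 1.74% and 6.94%. The log2 fold change was -0.86 (FDR = 0.000171) as deposited and -0.39 (SE 0.15, FDR = 0.0767) after scaling. A flanking peak 3803 bp from the start held 14.9, 15.3, 12.7 and 8.68 in hypoxia 1 and 2 and normoxia 1 and 2.

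Itgam, the alpha chain of the myeloid integrin CD11b/CD18, lies on chromosome 7 (128062640 to 128118491). It had 2 peaks far inside the gene, which also lie in the overlapping annotated gene Gm49368. The stronger, chr7:128089001-128089800, held 25.8 and 23.5 in hypoxia and 10.5 and 14.3 in normoxia (log2 fold change -0.50, SE 0.23, FDR = 0.149). The weaker, chr7:128105101-128105700, held 7.08 and 12.6 in hypoxia and 6.75 and 7.01 in normoxia (log2 fold change 0.02, SE 0.32, FDR = 0.982). Over the span the log2 fold change was -0.35 (SE 0.21, FDR = 0.164).

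Cx3cr1, the receptor of fractalkine, had 33 of the 56 peaks. Its GENCODE annotation on chromosome 9 runs over 168264 bp (119901616 to 120069879) because of a single long transcript that crosses Wdr48, Gorasp1, Ttc21a, Csrnp1 and Xirp1. The RefSeq gene is short (120048683 to 120068296), and 26 of the 33 peaks lay beyond it and its flanks. Those 26 peaks held from 86.4% to 89.1% of the Cx3cr1 signal in the 4 libraries. The sum over the whole span came to 1888 and 1935 in hypoxia and 974 and 1148 in normoxia, and was called lower (log2 fold change -0.37, SE 0.06, FDR = 1.79e-07). Over the RefSeq span alone it came to 206 and 242 in hypoxia and 129 and 156 in normoxia, and was not called (log2 fold change -0.17, SE 0.11, FDR = 0.182).

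Limma called 6 of the 33 Cx3cr1 peaks lower, all beyond the RefSeq span, and called 0 of the 7 peaks within it (1 at an unadjusted p under 0.05, 0 by edgeR). The strongest of the 6, chr9:119976201-119986700, covers the start of Csrnp1, a nuclear protein gene. It held 548 and 488 in hypoxia and 231 and 290 in normoxia (log2 fold change -0.52, SE 0.10, FDR = 0.000776). A further called peak, chr9:119936301-119938200, lies at the facing starts of Gorasp1 and Ttc21a and held 95.9 and 101 in hypoxia and 39.0 and 56.1 in normoxia (log2 fold change -0.59, SE 0.15, FDR = 0.00709). The other 4 lay between Csrnp1 and the RefSeq gene. Of these, chr9:120000101-120002900 held 153 and 180 in hypoxia and 74.96 and 83.8 in normoxia (FDR = 0.00177). Next to it, chr9:119999701-120000100 held 11.0 and 9.86 in hypoxia and 0.750 and 3.67 in normoxia (log2 fold change -1.64, SE 0.42, FDR = 0.00723), and chromstaR had assigned it to hypoxia only. The remaining called peaks were chr9:120008801-120017100, which overlaps Xirp1 (343 and 377 in hypoxia, 168 and 222 in normoxia, FDR = 0.00681), and chr9:120026601-120028300 (103 and 105 in hypoxia, 53.2 and 48.4 in normoxia, FDR = 0.00873). All 6 calls were lost without hypoxia library 1 (FDR from 0.175 to 0.265) or hypoxia library 2 (0.168 to 0.236), 3 without normoxia library 1 and the last-named without normoxia library 2 (FDR = 0.0605), and after cyclic loess scaling 5 were lost. The only peak near an own start of Cx3cr1, chr9:120069901-120071900, lies 22 bp from the start of the long transcript and not at the RefSeq start. It held 19.1 and 28.2 in hypoxia and 19.5 and 13.7 in normoxia (FDR = 0.958). Over all 33 peaks the log2 fold change ran from -1.74 to 0.99, and neither of these extremes was called.

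**Figure D4:**
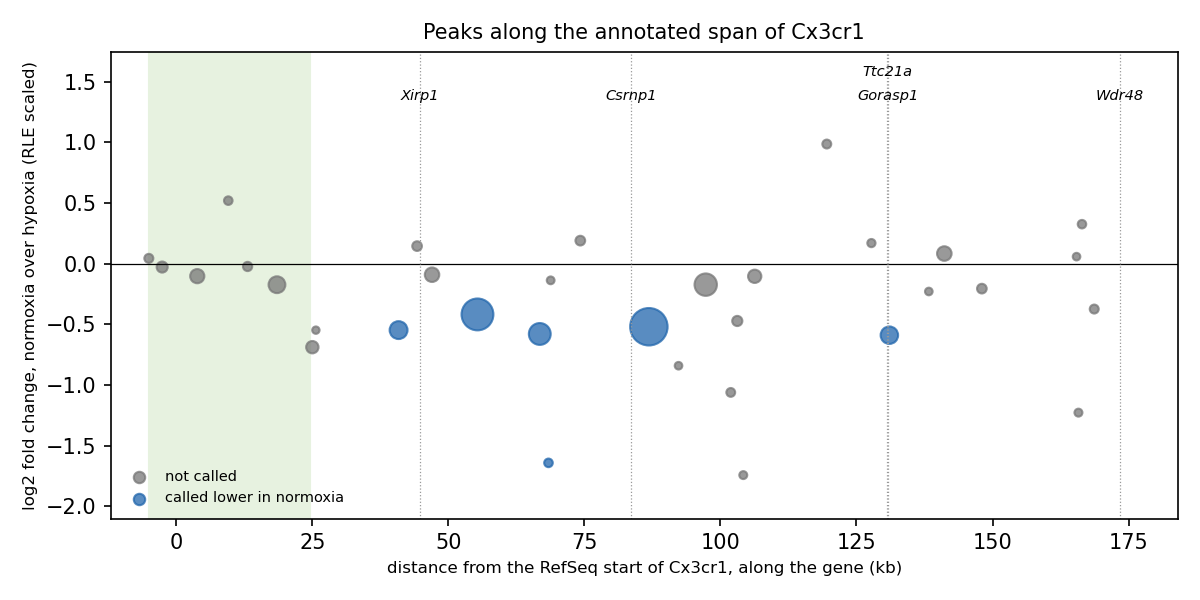
Log2 fold change (y axis, normoxia over hypoxia, RLE scaled) of the 33 peaks in the annotated Cx3cr1 span against distance from the RefSeq start (x axis, kb), with point area growing with mean signal. The green band is the RefSeq gene with its 5000 bp flanks, dotted lines mark the starts of neighbouring genes, and all 6 called peaks (blue) lie outside the band.

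The adaptor and lysosomal genes were not called in either direction. Tyrobp (DAP12), which pairs with activating receptors of myeloid and NK cells, lies on chromosome 7 (30413760 to 30417585) and had 1 peak in its span, past its end. That peak, chr7:30420001-30423900, lies at the starts of Hcst and Nfkbid. It held 65.8 and 49.3 in hypoxia and 48.0 and 51.4 in normoxia (log2 fold change 0.28, SE 0.16, FDR = 0.273). Laptm5, on chromosome 4 (130913125 to 130936141), had 1 weak peak, chr4:130915301-130915900, which lies 49 bp from an alternative start (130915949) and away from its main starts. It held 6.72 and 10.2 in hypoxia and 7.50 and 10.7 in normoxia, from 19 to 32 reads (log2 fold change 0.53, SE 0.31, FDR = 0.255).

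Cd68 had the largest start peak of the set, but not one of its own. The gene spans 1941 bp on chromosome 11 (69664213 to 69666153), within a peak of 11900 bp (chr11:69661201-69673100) that also covers starts of Eif4a1, a translation initiation factor, and Mpdu1. The peak held 489 and 457 in hypoxia and 287 and 319 in normoxia. Both normoxia libraries were lower, and the log2 fold change was -0.64 (FDR = 0.000883) as deposited and -0.17 (SE 0.09, FDR = 0.246) after scaling. How much of it belongs to the Cd68 start cannot be told apart in a peak of this width. A flanking peak of 100 bp, chr11:69661101-69661200, held from 0 to 3 reads per library (log2 fold change 0.17, SE 0.57, FDR = 0.877).

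Over all 56 peaks, limma called 6 lower and 2 higher in normoxia (14.3%), against 6.34% of all peaks, of which 4.57% were lower and 1.77% higher. All 6 of the lower calls were the Cx3cr1 peaks just described. Without Cx3cr1, 0 of 23 peaks were called lower and 2 higher (2 lower and 6 higher at an unadjusted p under 0.05, and 0 and 2 by edgeR). The median log2 fold change was -0.06 for the 56 peaks and 0.18 for these 23, against -0.0040 for all peaks. With the RefSeq span of Cx3cr1 the counts were 0 lower and 2 higher of 30 peaks. The split of calls turned with the scaling, from 17 lower and 1 higher as deposited (24% of all peaks lower, 0.391% higher and 24.4% in either direction) to 0 lower and 6 higher with equal totals over peaks, and 1 lower and 2 higher after cyclic loess. Of all 128055 peaks, equal totals called 1078 lower and 8798 higher (7.71% in either direction). Cyclic loess called 1681 of them lower and 1819 higher (2.73% in either direction). By place, 6 peaks lay at an own start, 5 at the start of another gene, 39 elsewhere in the gene and 6 in the flanks. Limma called 0 of the 6 own-start peaks (1 lower at an unadjusted p under 0.05, 0 by edgeR), where 17.1% of all start peaks were called, 16.7% lower and 0.442% higher. Without hypoxia library 1 or without hypoxia library 2, limma called 0 of the 56 peaks and 0 of all 128055.

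**Figure D5:**
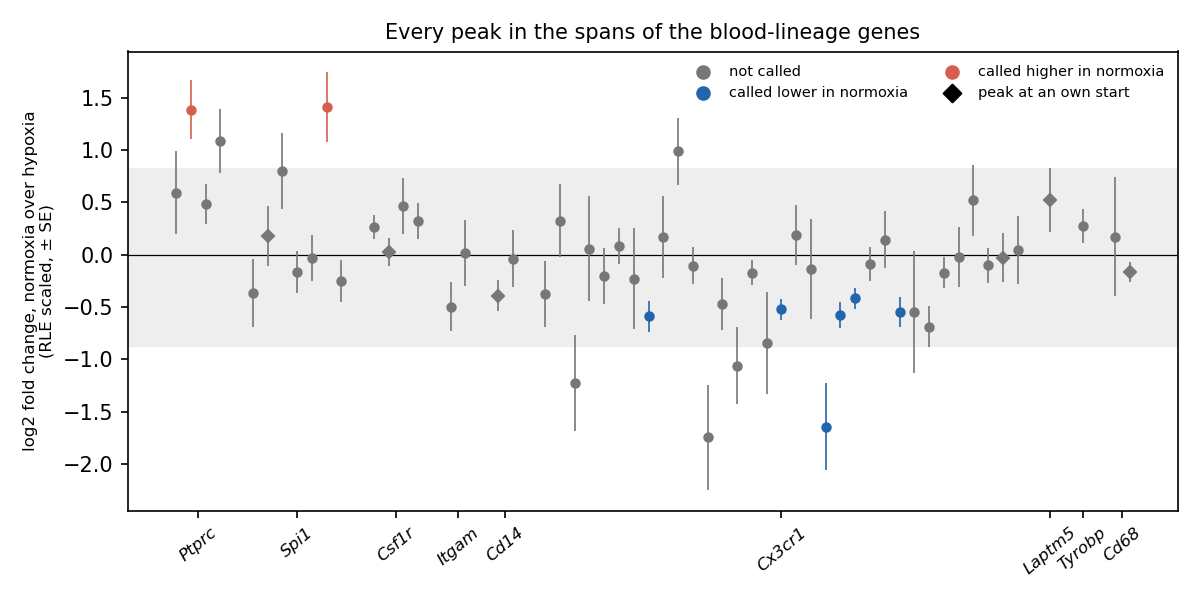
Log2 fold change with its SE (y axis, normoxia over hypoxia, RLE scaled) for each of the 56 peaks, grouped by gene along the x axis in genome order within a gene. The grey band spans the 5th to 95th percentile of all peaks (-0.87 to 0.82). The 2 peaks called higher (red) belong to Ptprc and Spi1, the 6 called lower (blue) to Cx3cr1, and diamonds mark peaks at an own start.

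Summed over gene spans, 9 genes could be tested, of which limma called Ptprc higher and Cx3cr1 lower. As deposited, 7 of the 9 had a negative fold change and 5 were called lower, where 77.2% of all gene spans were called, 77% lower and 0.203% higher. Over all start peaks 17.1% were called, 16.7% lower and 0.442% higher. The start peaks of the wider blood lists held 4 calls, all lower in normoxia, among 52 peaks (7.69%). These were Camp, an antimicrobial peptide of neutrophils (-0.68), Il2rb, an interleukin receptor chain (-0.94), Itga2b, the platelet integrin chain (-0.74), and Mecom, a stem cell transcription factor (-0.55), each as a log2 fold change. Limma called 0 of the 52 higher (6 at an unadjusted p under 0.05), and edgeR called 1, at Gp9. The median log2 fold change of the 52 was -0.09, against -0.27 over all start peaks. Among the stromal genes 5 of 15 start peaks (33.3%) were called lower, belonging to Ly6a, Twist1, Cd44, Col1a1 and Col1a2.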

How the data were processed

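ATAC-seq libraries of sorted mouse bone MSCs in hypoxia and normoxia (2 each) were used. Per the methods, the authors aligned reads to mm10 with bowtie2, removed duplicates with Picard and called peaks over both groups with chromstaR (bins of 300 bp, step 100 bp, mapping quality of at least 15). The deposited signal, called RPKM by the authors, was not divided by width. In every library 100% of values came out as whole reads (tolerance 0.01) once divided by the value of 1 read. Whether these count fragments or read positions is not given in the sources used here, so no counting interval is printed. The median peak held from 33 to 48 reads per library.

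Values were scaled by RLE size factors (1.13 and 1.23 in hypoxia, 0.810 and 0.886 in normoxia) and tested as log2(value + 1) with limma 3.58.1 in R 4.3.3 (trend, robust, two-sided, Benjamini-Hochberg), over 128055 peaks and, as sums, over 17712 protein-coding gene spans. An exact permutation test of 2 against 2 cannot go below 0.333 (two-sided), so none is given. On simulated data with 200 changed features, limma recovered 86% of 4-fold and 34% of 2-fold changes in peaks and 99% and 90% in gene spans, with 0 false calls. edgeR 4.0.16 on recovered reads, other scalings, pseudocounts, filters and leaving out each library were alternatives. Every peak of the 10 genes is counted and drawn, but not every uncalled peak is given with its values. Peaks that were called or strongest are given by library, and list genes are named where a start peak was called. Genes with a start near a member's peak, and a start peak of Pdgfra and Ly6a, are also named. Lyz2, C1qc, Vav1, Trem2, Gp9, Ptpn6 and Grcc10 were named after their values were seen. Genes were matched to GENCODE M21 by symbol, and 1 macrophage gene had no protein-coding match. The members and lists were chosen with earlier results of these data known.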

Additional observations from a re-analysis of the deposited data

How the results depend on the processing

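The Ptprc span stayed positive in all 15 alternatives of scaling, pseudocount, filter, model and library (log2 fold change 0.35 to 1.10) and was called in 13, the exceptions being the values as deposited and limma without trend and robust estimation, which calls 0 of all peaks and 0 of the peaks, genes and lists counted here. The called Ptprc peak kept its call in 11 of 15 and the called Spi1 peak in 8 of 15. The cause of the moves below was not tested, except where fewer peaks were counted.

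Of the 56 peaks, 6 were called lower and 2 higher. As deposited the counts were 17 and 1, with equal totals over peaks 0 and 6, with quantile normalization 0 and 1, and with cyclic loess 1 and 2. In the same order, 24.4%, 7.71%, 1.63% and 2.73% of all peaks were called in either direction. A pseudocount of 0.1 gave 2 lower, an FDR under 0.05 gave 4 higher, own-start peaks alone gave 0 and 0, and the RefSeq span of Cx3cr1 or no Cx3cr1 (both chosen after seeing the data) gave 0 lower. Leaving out 1 library gave 0 to 6 lower and 0 to 2 higher. The counts were 0 and 0 without hypoxia library 1, 0 and 0 without hypoxia library 2 and 3 and 1 without normoxia library 1. The median log2 fold change of -0.06 moved to -0.48 as deposited, 0.21 with equal totals, 0.036 with the RefSeq span of Cx3cr1 and 0.18 without Cx3cr1. Flanks of 0 or 10000 bp left 48 or 64 peaks.

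Of the gene spans, 1 was called lower and 1 higher. As deposited the counts were 5 and 0, with equal totals 0 and 3, and 2 were higher with quantile normalization and with cyclic loess. With the RefSeq span of Cx3cr1 0 were lower. Of the 52 start peaks of the blood lists, 4 were called lower. This became 20 as deposited and 1 with quantile normalization and with cyclic loess, and ran from 0 to 5 when 1 library was left out (0 without hypoxia library 1 and 0 without hypoxia library 2). A single start peak was called higher with equal totals (1), a minimum mean value of 5 (1), edgeR (1) and an FDR under 0.05 (1).

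Directions turned for values near 0. As deposited the log2 fold change was -0.43 for the Spi1 span, -0.26 for its start peak, -0.26 for the Csf1r span, -0.45 for its start peak and -0.19 for the Tyrobp span. The Cd68 span turned to 0.13 with equal totals, 0.067 with quantile normalization and 0.072 with cyclic loess, and its start peak to 0.12, 0.19 and 0.30. The Spi1 start peak was -0.018 with quantile normalization and -0.034 with cyclic loess, and the Cx3cr1 start peak was 0.25 with equal totals. With 1 library left out, the Spi1 span ran from -0.060 to 0.12, its start peak from -0.13 to 0.47, the Csf1r start peak from -0.048 to 0.11 and the Cx3cr1 start peak from -0.33 to 0.28.

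Libraries of the same number did not deviate together (correlation of deviations 0.0110 over all peaks). With 2 libraries per group this cannot decide whether the numbers pair them, so pairing is left unknown. A replicate block gave 8 lower and 3 higher of the 56 peaks, and called 1 list start peak higher. At the depth here limma recovered 34% of simulated 2-fold changes in peaks, so a change of that size at a weak peak can go uncalled.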
